A study of Mus musculus with 56 samples.

Results

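Monocytes and macrophages sorted from an injured skull bone were compared with those sorted from an injured piece of skin, both taken 7 days after injury from control mice that kept their regulatory T cells (Tregs). The comparison rested on 9 of the 56 libraries of the series, 5 from bone and 4 from skin, and covered every gene with enough counts, 14340 of the 57010 genes in the table. The bone libraries came from wild-type C57BL/6J mice with a cranial defect and the skin libraries from wild-type C57BL/6J mice with a full-thickness biopsy punch. All mice were 10 weeks old, carried 1 injury each and received diphtheria toxin at 20 ng/g by intraperitoneal injection from before injury until after it. Mouse cells lack a receptor that binds the toxin well, and these mice were the controls of Foxp3(DTR/GFP) mice (FDG), whose Foxp3-expressing Tregs carry such a receptor and are deleted by the same toxin. The depleted counterparts at day 7, again 5 bone and 4 skin libraries but from FDG mice given the toxin, and 3 libraries of wild-type mice given the toxin with a volumetric muscle loss defect were used beside the main comparison. The labels call the sorted cells monocytes/macrophages, and they leave unsaid whether each library is a separate animal, and the p-values below measure the spread between libraries.

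Macrophages in a wound are both cells that settled in the tissue before injury and monocytes that arrive from the blood and bone marrow and mature in place. Arriving monocytes carry Ly6C and the chemokine receptor CCR2, and as they mature they lose these and gain genes for scavenging, lipid handling and antigen presentation. Skull bone holds marrow, in which monocytes, granulocytes and B lineage cells are made, whereas skin is a barrier tissue with its own epithelium and Langerhans cells. Activated macrophages secrete interleukin-1, tumour necrosis factor and chemokines through the transcription factor NF-κB, and repair-type macrophages make growth factors and scavenger receptors.

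Total counts ran from 2318223 to 4285905 in the bone libraries and from 3318829 to 5392902 in the skin libraries. Genes detected ran from 17206 to 20096 in bone and from 19729 to 21908 in skin. The share of counts on mitochondrial transcripts was 1.04 to 1.35 percent in bone and 1.85 to 2.19 percent in skin, with no overlap (exact permutation test, two-sided, p = 0.00794, 0.0476 after adjustment over 6 such measures; 0.00794 is the smallest p of 5 against 4 libraries). The ribosomal RNA fragment Rn18s-rs5 ran from 14232 to 77602 CPM (counts scaled to library size) in bone and from 7966 to 20965 in skin. Bone replicate 3 held that highest value. Levels below are CPM scaled by TMM (trimmed mean of M values) factors, and a gene was called where its p from edgeR's quasi-likelihood test, adjusted by Benjamini-Hochberg over all 14340 genes, was below 0.05.

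The tissues differed across a large share of the genes: 3670 were called (25.6 percent of those tested), 1656 of them higher in bone (11.5 percent) and 2014 lower (14 percent). Large differences were more often towards skin. At a fitted change of at least 4-fold, 668 genes were called (4.66 percent), of which 230 were higher in bone (1.6 percent) and 438 lower (3.05 percent). The libraries of the groups did not overlap at all for 2737 genes (19.1 percent). Some named genes share at least 5 percent of their 31-base words with another annotated gene. Among them were Ly6c2, Lyz2, Bglap, Hspa1a, Hspa1b, Krt14, Chil3, Spp1, Rrm2, Serpinb2, Cxcl2, Retnlg, Retnla, Spic, Fabp5, Cd177 and mt-Co2. Their reads may have been split between near-identical genes by the authors' counting.

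**Figure D1:**
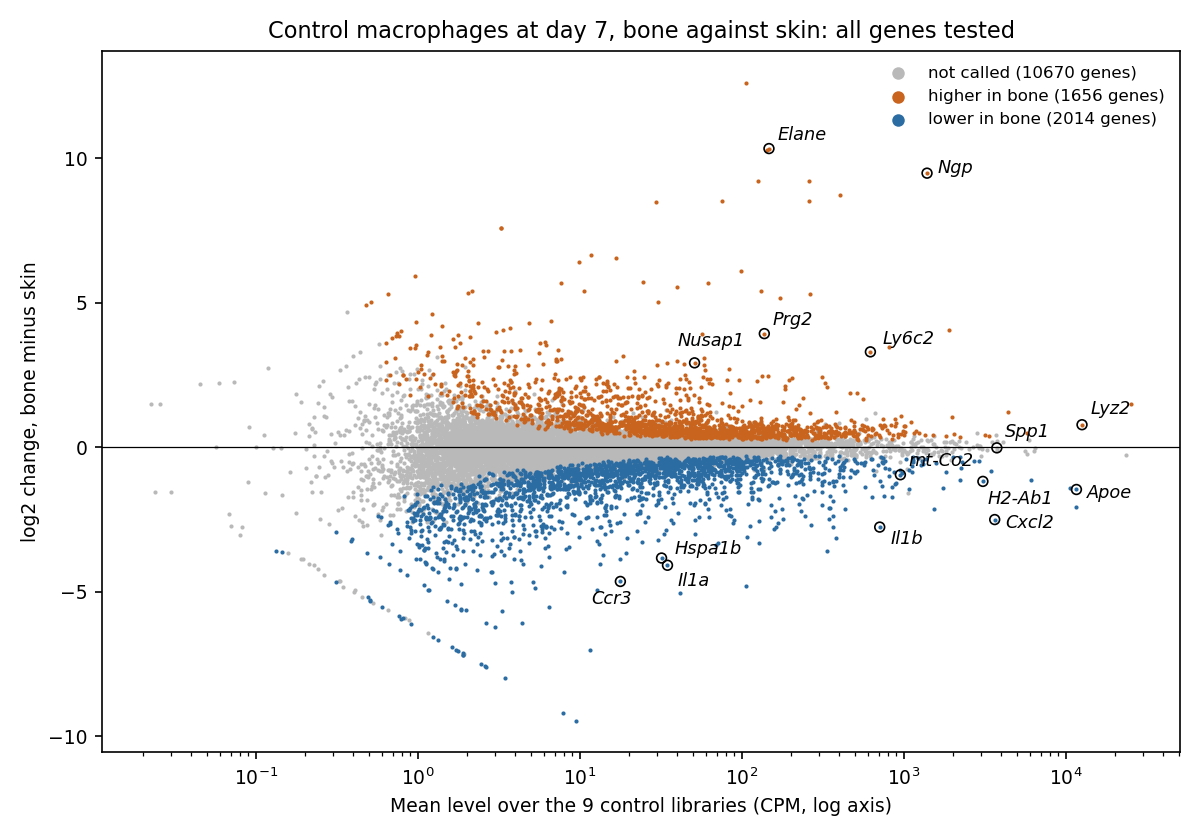
Log2 change of bone minus skin (vertical) against the mean level over the 9 control libraries in CPM (horizontal, log axis) for the 14340 genes tested; each point is a gene, coloured by its call, and the named genes are circled. The 1656 genes higher in bone include the granule genes Elane and Ngp near the top, and the 2014 lower ones include Il1b, Cxcl2 and Apoe at high levels.

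Both groups carried the genes that define the lineage. Csf1r, the receptor for macrophage colony-stimulating factor, had 444, 406, 371, 412 and 494 CPM in the bone libraries and 602, 485, 558 and 714 in the skin libraries. It was lower in bone, with a log2 change of -0.47 (SE 0.13, adjusted p = 0.00471), but the groups overlapped and the call was lost without skin replicate 4 (adjusted p = 0.0511). Adgre1, which encodes F4/80, had 136 ± 24.4 CPM in bone and 206 ± 31.8 in skin (SD, n = 5 and 4) and was also called lower, at a log2 change of -0.60. Cd68, a lysosomal membrane protein of macrophages, stood at 874 ± 107 and 779 ± 138 CPM and was not called. Lyz2, the lysozyme of myeloid cells, went the other way, with 15447 ± 4770 CPM in bone, 8996 ± 1557 in skin and a log2 change of 0.78 (SE 0.18, adjusted p = 0.00122). Over 23 pan-macrophage genes tested, 2 were higher in bone, 13 lower and 8 not called, with a median log2 change of -0.40 against -0.03 over all genes. Since the libraries are bulk samples, fewer cells of a type and less RNA per cell cannot be told apart, here and in every list that follows.

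Genes of the classical monocyte lay mostly on the bone side. Of 19 tested, 13 were higher in bone, 2 lower and 4 not called, and the median log2 change was 0.96. The list also holds Cd177, which was called higher at a log2 change of 2.89. Neutrophil markers, given below, were also mostly higher in bone, and their part in these counts was not tested. Ly6c2, which encodes the Ly6C surface protein of newly arrived monocytes, had 719, 774, 1124, 1445 and 1114 CPM in bone and 104, 122, 88.5 and 105 in skin (ENSMUSG00000022584, chr15:75108158-75111970, minus strand, in GRCm38). All 5 bone libraries lay above every skin library by a wide margin, and the log2 change was 3.30 (SE 0.30, adjusted p = 1.4e-10). Plac8, a small cysteine-rich protein of monocytes, had 678, 563, 840.3, 804 and 923 CPM in bone and 185, 218, 200.3 and 225 in skin, a log2 change of 1.88 (SE 0.26, adjusted p = 1.01e-06). The haptoglobin gene Hp, whose product binds free haemoglobin, had 363, 396, 639.5, 519 and 586 CPM in bone and 80.01, 98.1, 119.5 and 125 in skin, a log2 change of 2.24 (SE 0.27, adjusted p = 6.14e-08). None of these 3 genes overlapped between tissues. The difference in Ccr2, the receptor that brings monocytes out of the marrow, was smaller: 671 ± 89.2 CPM in bone, 449 ± 98.9 in skin, overlapping libraries and a log2 change of 0.58 (SE 0.15, adjusted p = 0.00286).

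The 2 members that fell in bone were Clec4e and Thbs1. Clec4e encodes Mincle, a receptor for mycobacterial glycolipids and for material from dead cells, and had 149.7, 95.5, 135, 195 and 132 CPM in bone and 635, 744, 581 and 488 in skin. Thrombospondin-1, the product of Thbs1, is a matrix glycoprotein that activates latent TGF-β, and its gene had 125.5, 173, 111, 140.2 and 148 CPM in bone and 621, 738, 478 and 577 in skin. Each had a log2 change of -2.11 and no overlap between the tissues (adjusted p = 5.69e-10 for Clec4e and 1.08e-08 for Thbs1). Among 14 non-classical monocyte genes, 4 were higher, 1 was lower and 9 were not called (median 0.48). Spn, the sialophorin CD43, was one of the 4, with 20.5, 28.4, 22, 24.9 and 27.8 CPM in bone and 7.52, 7.21, 8.6 and 7.1 in skin. Cx3cr1, the fractalkine receptor of that subset, had 208 ± 35.8 CPM in bone and 146 ± 42.6 in skin and missed the threshold (adjusted p = 0.0602), although DESeq2 and limma-voom called it higher, as did edgeR without bone replicate 4 or skin replicate 3. Annexin A1, an inhibitor of inflammation that also bridges dying cells, was encoded by a gene with 1264 ± 269 CPM in bone and 592 ± 98.3 in skin, a log2 change of 1.09 (SE 0.15, adjusted p = 5.21e-07).

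Genes of the cell cycle were almost all higher in bone. Of 34 tested, 32 were higher in bone, 0 lower and 2 not called, with a median log2 change of 1.78. The count stayed at 31 or 32 with any 1 library left out. Nusap1, which bundles spindle microtubules, had 69.4, 90.9, 90.02, 81.4 and 84.3 CPM in bone and 9.4, 12.8, 11.1 and 10.3 in skin, a log2 change of 2.92 (SE 0.19, adjusted p = 2.74e-15). It lies at chr2:119618298-119651244 of GRCm38. The topoisomerase gene Top2a, which untangles replicated chromosomes, had 65.7, 133, 102, 106 and 76.9 CPM in bone and 17.7, 26, 18.7 and 20.7 in skin, a log2 change of 2.21 (SE 0.19, adjusted p = 2.93e-12). Rrm2, a subunit of the enzyme that makes deoxyribonucleotides, had 59.7, 75.1, 63.5, 59.1 and 66 CPM in bone and 9.4, 10.8, 5.22 and 6.89 in skin. In each of these genes every bone library exceeded every skin library. Mki67, the Ki-67 protein of dividing cells, had 32.5 ± 10.1 CPM in bone and 12.3 ± 2.32 in skin, a smaller log2 change of 1.40. Markers of progenitor cells moved with these genes: their summed level ran from 697.9 to 1517 CPM in bone and from 29.5 to 57.18 CPM in skin, and their part in the cell cycle counts was not tested.

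Respiratory chain genes split by the genome that carries them. Of 32 nuclear genes of oxidative phosphorylation tested, 18 were higher in bone, 0 were lower and 14 were not called (median 0.32), whereas of 13 transcripts of the mitochondrial genome 0 were higher, 11 lower and 2 not called (median -0.76). Ndufb7, an accessory subunit of complex I, had 453, 396, 538, 457 and 470.2 CPM in bone and 268, 252, 272 and 279 in skin, a log2 change of 0.79 (SE 0.11, adjusted p = 7.74e-07). Ndufa4, first assigned to complex I and later to cytochrome c oxidase, had 741, 833, 878, 947 and 1003 CPM in bone and 612, 605, 465 and 470.3 in skin, a log2 change of 0.71 (SE 0.13, adjusted p = 4.39e-05). Against these, mt-Nd1, a core subunit of complex I read from the mitochondrial genome, had 347, 394, 459.5, 537 and 586 CPM in bone and 905, 804, 904 and 987 in skin, a log2 change of -0.95 (SE 0.16, adjusted p = 8.34e-06). The differences were of less than 2-fold in most members: in a test against a 2-fold change, 0 of the nuclear and 0 of the mitochondrial genes were called. The nuclear count was 10 with no filter on low counts and 14 to 19 with 1 library left out, and the mitochondrial count was 7 to 11 with 1 library left out. Among 27 glycolysis and hypoxia genes, 1 was higher (the hexokinase Hk3), 13 were lower and 13 not called. Pfkfb3, which raises the activator of glycolytic flux, had 30.7, 46.1, 53.1, 34.9 and 33.5 CPM in bone and 126.5, 131, 136 and 87.4 in skin, and Hif1a, the hypoxia-inducible factor, had 69.2 ± 15.9 CPM in bone and 134 ± 18 in skin (log2 change -0.95).

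**Figure D2:**
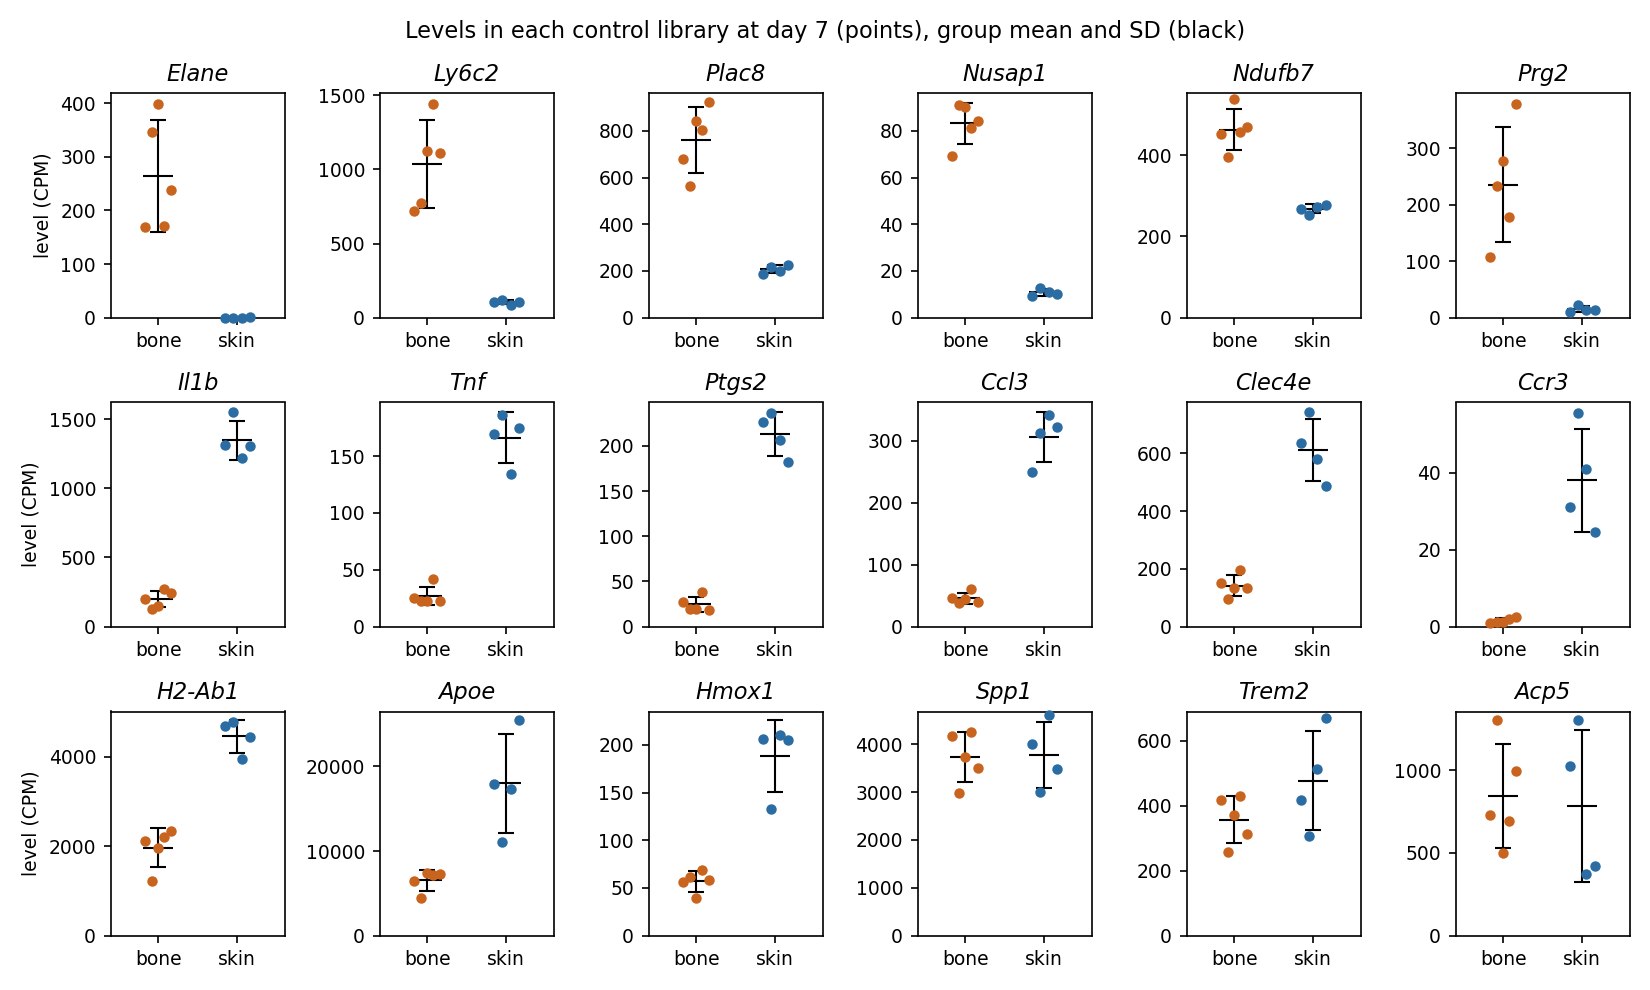
Level in CPM (vertical, from 0) of 18 genes in each control library at day 7; every point is a library, with bone left of skin, and the black bars give the group mean and SD (n = 5 and 4). The top row shows genes higher in bone, the middle row genes lower in bone, and the bottom row 3 genes lower in bone followed by Spp1, Trem2 and Acp5, which were not called.

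Very large differences were seen in granule proteins made by marrow precursors of neutrophils. Elane, neutrophil elastase, had 169.5, 346, 399, 170.5 and 238 CPM in the bone libraries and 0, 0, 0 and 0.646 in the skin libraries (ENSMUSG00000020125, chr10:79886247-79888215, plus strand, in GRCm38). The skin libraries held 3 Elane counts in all against 4723 in bone, a ratio of 1533 with a 95 percent exact counting interval of 524 to 7436, which covers counting error only. Mpo, the myeloperoxidase of primary granules, had 304, 560.2, 679.7, 345 and 453 CPM in bone and 0.269, 0, 0 and 2.58 in skin, a log2 change of 9.22 (SE 0.61, adjusted p = 1.49e-13). Prtn3, proteinase 3, a neighbour of Elane on chromosome 10, had 119, 210.5, 258, 136 and 153 CPM in bone and 0, 1.62, 1.84 and 6.24 in skin, a log2 change of 6.10 (SE 0.49, adjusted p = 8.4e-12). Bone replicates 2 and 3 were the highest in all 3 of these genes.

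The promoters of these 3 genes are printed because the genes are nearly confined to the bone libraries of this comparison and move together. Each is the RefSeq window of GRCm38.p6 from 250 bases before to 50 bases after the start, on the plus strand, at chr10:79886062-79886361, chr10:79879417-79879716 and chr11:87793534-87793833. Capitals mark GAGGAAG, the core bound by PU.1, the ETS factor of the myeloid lineage, searched for on both strands as one of 8 motifs.
Elane: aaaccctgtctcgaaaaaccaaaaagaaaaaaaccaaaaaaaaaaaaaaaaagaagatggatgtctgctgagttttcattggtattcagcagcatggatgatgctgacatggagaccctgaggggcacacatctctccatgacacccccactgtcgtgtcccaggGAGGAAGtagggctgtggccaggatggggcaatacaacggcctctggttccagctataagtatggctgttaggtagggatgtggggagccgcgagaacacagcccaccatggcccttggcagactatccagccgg
Prtn3: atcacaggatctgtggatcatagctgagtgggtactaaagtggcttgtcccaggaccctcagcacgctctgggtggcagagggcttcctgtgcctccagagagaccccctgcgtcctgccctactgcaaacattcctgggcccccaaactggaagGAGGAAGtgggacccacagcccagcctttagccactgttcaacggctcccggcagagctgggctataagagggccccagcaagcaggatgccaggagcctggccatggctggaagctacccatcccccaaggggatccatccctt
Mpo: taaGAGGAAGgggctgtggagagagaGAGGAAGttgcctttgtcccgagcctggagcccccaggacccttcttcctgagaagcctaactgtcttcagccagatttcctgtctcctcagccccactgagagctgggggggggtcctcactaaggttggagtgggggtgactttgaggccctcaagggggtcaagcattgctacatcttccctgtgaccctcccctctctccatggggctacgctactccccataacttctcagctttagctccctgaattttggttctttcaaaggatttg
Elane and Prtn3 each hold 1 match and Mpo holds 2. The motif was found in 10 of the 18 neutrophil markers with a window, in 5 of 11 progenitor markers (lists that share Elane, Mpo, Prtn3 and Ctsg), and in 13.6 percent of all 32851 promoter windows. The same motif was also found in 10 of 22 resident and perivascular macrophage genes with a window. Of that list, 12 genes were lower in bone and 0 higher. A match describes the letters and is not a binding site.

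The secondary granule genes moved in the same direction. Ngp, the neutrophilic granule protein, had 1615, 1844, 4160, 2534 and 2349 CPM in bone and 2.15, 1.08, 0.615 and 9.47 in skin, a log2 change of 9.48 (SE 0.56, adjusted p = 1.31e-14). Ltf, which encodes the iron-binding lactoferrin, had 345, 466, 653, 548 and 334 CPM in bone and 0.537, 0.361, 2.46 and 1.94 in skin. Camp, the cathelicidin antimicrobial peptide, had 383, 549, 921, 1130 and 646 CPM in bone and 2.15, 0.541, 0 and 3.87 in skin. Skin values stayed below 10 CPM in all 4 libraries for each of these genes. Of 19 neutrophil markers tested, 11 were higher in bone, 2 lower and 6 not called (median 4.05), and 6 of 12 progenitor markers were higher with 0 lower. Summed over the list, neutrophil markers came to 6006 to 13974 CPM in bone and 1163 to 2005 CPM in skin.

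S100a8, an alarm protein that monocytes share with neutrophils, averaged 3271 CPM in bone and 197.5 in skin, and Ly6g, the surface marker of mature neutrophils, averaged 4.10 CPM in bone and 0.161 in skin. S100a8 and Ly6g are named here after their values were seen.

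Retnlg and Hdc, the histamine-forming enzyme, were the markers that ran against this order. Retnlg, a resistin-like protein of mature neutrophils, had 41.5, 30.01, 70.9, 66.1 and 83 CPM in bone and 555, 1024, 507 and 651 in skin, a log2 change of -3.57 (SE 0.56, adjusted p = 1.15e-05). Il1r2, the decoy receptor for interleukin-1 carried by neutrophils and other cells, had 61.4, 44.5, 63.8, 52.5 and 31.7 CPM in bone and 282, 475, 237 and 252 in skin, likewise lower in bone. Il1r2 is not on the neutrophil list but is on the list of Langerhans cell markers used below. Mmp9, the gelatinase of neutrophils and osteoclasts, was not called, at 264 ± 146 and 284 ± 196 CPM. Precursor granule genes and Retnlg thus lay on opposite sides of the same libraries. Most called neutrophil markers moved with the bone samples, and Retnlg and Hdc moved with the skin samples. The part of either in the differences of the macrophage lists was not tested.

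Genes of the other granulocytes also lay on both sides. Prg2, eosinophil major basic protein, had 108, 234, 278, 179 and 379 CPM in bone and 10.5, 22.9, 12.9 and 14.2 in skin, a log2 change of 3.93 (SE 0.49, adjusted p = 2.34e-07). Epx, eosinophil peroxidase, had 6, 15.1, 25.9, 3.65 and 16.9 CPM in bone and 0.269, 0.541, 0 and 0 in skin. The basophil protease Prss34 had 83, 156, 206, 65.8 and 34.8 CPM in bone and 2.69, 1.08, 1.84 and 3.01 in skin, and Mcpt8, a protease of basophils, had 60.9, 104, 150.2, 69.8 and 39.98 CPM in bone and 15.6, 29, 16.6 and 18.5 in skin. All 4 granule genes were higher in bone with no overlap. The eosinophil surface genes Ccr3 and Siglecf went the other way. Other surface receptors of the list, Kit, Fcer1a, Ms4a2 and Il5ra, are not described here. Ccr3, the eotaxin receptor, had 0.922, 1.23, 1.29, 1.99 and 2.61 CPM in bone and 31.1, 55.5, 40.9 and 24.5 in skin, a log2 change of -4.64 (SE 0.59, adjusted p = 1.35e-07). Siglecf, an eosinophil lectin, had 1.38, 2.45, 1.62, 0.997 and 1.74 CPM in bone and 20.1, 45.3, 23.7 and 22.6 in skin, a log2 change of -4.04 (SE 0.53, adjusted p = 2.39e-07). Il4, the cytokine of basophils, mast cells and T helper 2 cells, was found by 3 counts in the bone libraries and 470 in the skin libraries, 161 times more in skin (95 percent exact counting interval 54.7 to 783). Alox15, a lipoxygenase of eosinophils and alternatively activated macrophages, had 0.461, 1.23, 0.648, 6.31 and 6.95 CPM in bone and 87.3, 129, 72.8 and 69.5 in skin. Skin replicate 2 was the highest skin library in Ccr3, Siglecf, Il4 and Alox15. In the list of these granulocytes and mast cells, 5 of 15 genes were higher, 3 were lower and 7 missed the threshold, and the list summed to 278 to 694 CPM in bone and 109.8 to 203 in skin. Its part in the other differences was not tested.

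Markers of osteoblasts and of antibody-forming cells were also found in the bone libraries. Ibsp, the bone sialoprotein of osteoblasts, had 10.2, 15.3, 30.8, 1.66 and 30.4 CPM in bone and 0.537, 0.18, 0 and 0 in skin, and Bglap, osteocalcin, had 298, 476, 295, 40.5 and 171 CPM in bone and 0, 0, 0 and 0.646 in skin. Bone replicate 4 was the lowest of the 5 in both. With 3 counts each over the skin libraries, the ratio was 93.8 for Ibsp (95 percent exact counting interval 31.8 to 458) and 1638 for Bglap (560.3 to 7948). Osteoblast markers summed to 78.4 to 871 CPM in bone and 11.1 to 17.9 CPM in skin. Fibroblast and mural cell markers came to 1472 to 5366 CPM in bone and 931 to 1919 in skin. Col1a1, a chain of type I collagen, had 1036, 1385, 964, 251 and 375 CPM in bone and 289, 249, 159 and 313 in skin, with overlap. It was called at a log2 change of 1.67 (SE 0.53, adjusted p = 0.0179), but not without bone replicate 2 (adjusted p = 0.057) or skin replicate 3 (0.0612).

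Immunoglobulin transcripts were concentrated in 2 bone libraries. Igkc, the kappa light chain constant gene, had 64.1, 629.7, 72.2, 45.2 and 707 CPM in bone and 2.42, 3.25, 2.77 and 24.3 in skin, and Jchain, which joins secreted antibody units, had 4.38, 94.9, 16.8, 5.32 and 97.3 CPM in bone and 0.269, 0, 0 and 2.8 in skin. Replicates 2 and 5 stood apart from the other bone libraries in both genes. The calls (log2 changes of 5.16 and 5.70) were lost when only replicates 1 to 4 of these groups were fitted, at adjusted p = 0.0615 for Igkc and 0.0669 for Jchain. Markers of B lineage and plasma cells summed to 265.5 to 1302 CPM in bone and 164 to 179.9 in skin.

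Markers of the epidermis were found in the skin libraries. Krt14, a keratin of basal epidermis, had 0 counts in all 5 bone libraries and 21.5, 36.1, 10.4 and 16.8 CPM in skin, at least 134 times more when bone is set at the floor of 3 counts over the group. Cd207, the langerin of Langerhans cells, had 0.231, 0.408, 0, 0 and 0.435 CPM in bone and 4.83, 7.21, 8.6 and 5.38 in skin, and Epcam, an adhesion protein of epithelia and Langerhans cells, had 1.15 ± 1.41 CPM in bone and 12.8 ± 2.88 in skin. Of 11 keratinocyte markers 8 were lower in bone and 0 higher, and of 7 Langerhans cell markers 5 were lower and 0 higher. Keratinocyte markers summed to 126.4 to 223 CPM in bone and 316 to 1177 in skin, with Krt14, Krt15, Krt16, Krt17 and Trp63 at 0 in every bone library. Most of that sum was 1 member, Fabp5, with 137, 95.4, 113, 197 and 136 CPM in bone and 235, 480, 301 and 1116 in skin. Fabp5 also averaged 400 CPM in control muscle, so the sum does not measure keratinocytes alone. Langerhans cell markers summed to 178 to 289 CPM in bone and 484.5 to 794 in skin. That list also holds Il1r2, given above beside the neutrophil markers, and Cd24a, at 34.5 ± 11.5 CPM in bone and 148 ± 62.2 in skin. Cd207 and Epcam were a small part of the sum, so it does not measure Langerhans cells alone. Haemoglobin and other erythroid markers were also lower (5 of 7, 0 higher), at 163 to 566 CPM in bone and 1429 to 2074 in skin. T and NK cell markers summed to 82.6 to 133 CPM in bone and 27.4 to 51.8 in skin, with 2 of 16 higher and 1 lower, and muscle and adipocyte markers to 1.38 to 9.64 CPM in bone and 27.7 to 57.9 in skin. The part of these cells in the differences below was not tested.

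**Figure D3:**
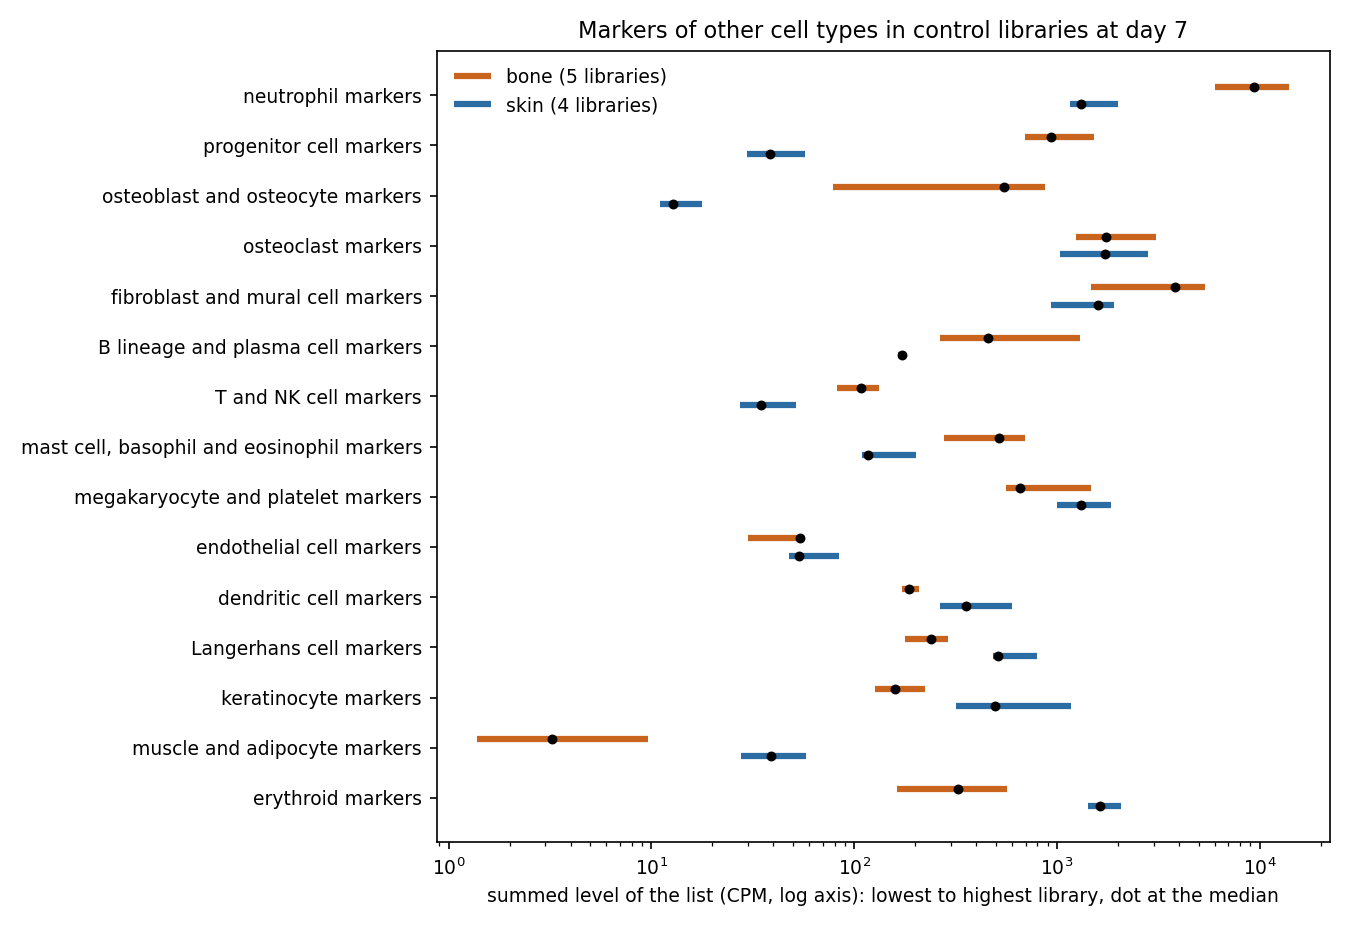
Summed level in CPM (horizontal, log axis) of 15 lists of markers of other cell types in control libraries, bone above skin in each row; lines run from the lowest to the highest library and dots are medians. Neutrophil, progenitor and osteoblast markers lie higher in bone without overlap, keratinocyte, Langerhans, muscle and adipocyte, and erythroid markers lie lower, and osteoclast and endothelial markers overlap. The keratinocyte list includes Fabp5, and the Langerhans list includes Il1r2 and Cd24a.

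Inflammatory mediators were lower in bone by large factors. Of 26 cytokine and mediator genes tested, 0 were higher in bone, 19 lower and 7 not called, with a median log2 change of -2.29. That count was 19 or 20 with any 1 library left out and 15 in a test against a 2-fold change. Il1b, interleukin-1β, had 201, 131, 153, 273 and 242 CPM in bone and 1311, 1549, 1221 and 1306 in skin (ENSMUSG00000027398, chr2:129364570-129371139, minus strand, in GRCm38), a log2 change of -2.76 (SE 0.22, adjusted p = 2.69e-12). Il1a, the alarm cytokine interleukin-1α, had 3.92, 3.06, 3.89, 6.31 and 4.78 CPM in bone and 67.4, 76.5, 90.03 and 57 in skin, a log2 change of -4.08 (SE 0.45, adjusted p = 6.31e-09). Tnf, tumour necrosis factor, had 25.1, 22.9, 23, 41.5 and 22.2 CPM in bone and 169.7, 186, 134 and 175 in skin, a log2 change of -2.63 (SE 0.24, adjusted p = 2.71e-11). In all 3 the highest bone library, replicate 4 each time, was far below the lowest skin library. Osm, oncostatin M, a cytokine of the interleukin-6 family that acts on bone and stromal cells, varied little within a tissue, with 30.7, 31.4, 31.1, 31.2 and 27.4 CPM in bone and 161, 172, 143 and 148 in skin. Il10, the anti-inflammatory cytokine, was lower as well, with 2.34 ± 0.862 CPM in bone and 11.2 ± 2.4 in skin (log2 change -2.21).

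The enzymes that make short-range mediators followed. Ptgs2, cyclooxygenase-2, which commits arachidonic acid to prostaglandins, had 27.7, 19.8, 19.4, 37.9 and 18.7 CPM in bone and 227, 236, 207 and 182 in skin, a log2 change of -3.11 (SE 0.27, adjusted p = 1.33e-11). Ptges, the synthase that makes prostaglandin E2 from its product, had 1.84, 3.88, 2.27, 1.99 and 2.61 CPM in bone and 32.5, 29.6, 27.4 and 15.7 in skin. Nos2, inducible nitric oxide synthase, had 0.692, 0.204, 0, 0.332 and 0 CPM in bone and 23.6, 15.2, 11.7 and 6.24 in skin, a log2 change of -5.51 (SE 0.82, adjusted p = 2.08e-06). Arg1, which competes with it for arginine, was in the same direction, with 108, 119, 121, 364 and 164 CPM in bone and 533, 534, 776 and 432 in skin. Bone replicate 4 stood apart for Arg1, and the call at a log2 change of -1.70 (adjusted p = 0.0214) was lost without bone replicate 1 (adjusted p = 0.0565), 2 (0.0544) or 3 (0.0533) or skin replicate 3 (0.0647). Slc7a11, the cystine importer of the glutathione pathway, had 16.4, 8.57, 14.6, 20.3 and 13 CPM in bone and 151, 150.1, 166 and 104 in skin. The urokinase inhibitor gene Serpinb2 had 11.1, 2.45, 8.1, 13.6 and 6.08 CPM in bone and 219, 333, 201 and 158 in skin, a log2 change of -4.80 (SE 0.58, adjusted p = 1.06e-07).

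Among chemokines, the called differences sat in some members, while the median log2 change was -0.86 for CC and -0.98 for CXC chemokine genes. Of 13 CC chemokine genes 5 were lower in bone and 8 not called, and of 12 CXC chemokine genes 5 were lower and 7 not called, with 0 higher in either list. Ccl3, which attracts monocytes and other leukocytes, had 45.9, 37.6, 45.3, 60.5 and 39.1 CPM in bone and 249, 313, 341 and 323 in skin, a log2 change of -2.75 (SE 0.20, adjusted p = 4.11e-14). Its neighbour Ccl4 had 102, 78, 106, 131 and 107 CPM in bone and 601, 715, 781 and 691 in skin, a log2 change of -2.74 (SE 0.21, adjusted p = 1.68e-13). Cxcl2, a neutrophil attractant, had 1356, 817, 963, 1907 and 898 CPM in bone and 6238, 7969, 6177 and 6415 in skin, a log2 change of -2.50 (SE 0.31, adjusted p = 1.31e-07). No bone library reached a skin library in any of them. Ccl24, the eosinophil attractant eotaxin-2, had 34.8 ± 19 CPM in bone and 32.9 ± 11.2 in skin and was not called (adjusted p = 0.946).

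Genes of the NF-κB pathway, feedback inhibitors among them, were lower in bone. Of 21 genes of the pathway tested, 15 were lower, 0 higher and 6 not called (median -0.90). Nfkbia, the inhibitor IκBα, had 629, 537, 518, 745 and 624 CPM in bone and 3045, 2815, 2666 and 2297 in skin, a log2 change of -2.15 (SE 0.16, adjusted p = 3.94e-14). Tnfaip3, the ubiquitin-editing enzyme A20, had 102, 86.8, 97.1, 65.1 and 73.4 CPM in bone and 484, 468, 472 and 348 in skin, a log2 change of -2.38 (SE 0.18, adjusted p = 2.45e-13). Nfkbiz, the nuclear IκBζ, had 173 ± 20.9 CPM in bone and 759.7 ± 154 in skin. The promoter of Tnfaip3 is printed because its window holds the motif of the factor its protein restrains: capitals mark the 1 match, on the other strand, to GGGANTTCC, the κB motif, in the RefSeq window of GRCm38.p6 at chr10:19015361-19015660, minus strand.
Tnfaip3: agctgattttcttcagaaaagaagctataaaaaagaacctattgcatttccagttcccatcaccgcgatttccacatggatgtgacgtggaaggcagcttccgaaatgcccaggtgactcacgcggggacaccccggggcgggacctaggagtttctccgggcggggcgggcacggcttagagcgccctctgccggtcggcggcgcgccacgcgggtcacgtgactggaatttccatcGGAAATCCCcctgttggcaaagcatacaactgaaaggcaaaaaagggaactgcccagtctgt
This motif was in 6 of the 18 genes of the pathway with a window, in 0 of the 18 cytokine and mediator genes with a window, and in 1.68 percent of all windows. The match is a description of the letters.

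Stress and immediate early genes moved in the same direction. Of 25 early response genes, which include those that tissue dissociation is known to induce, 21 were lower in bone, 1, Klf2, was higher and 3 were not called (median -0.93), and of 15 heat shock genes 7 were lower and 8 not called. Hspa1a, an inducible heat shock protein, had 26.8, 19.2, 18.1, 31.2 and 33.9 CPM in bone and 242, 258, 229.8 and 286 in skin, a log2 change of -3.31 (SE 0.19, adjusted p = 1.84e-16). Zfp36, the RNA-binding tristetraprolin that shortens the life of cytokine transcripts, had 409, 317, 362, 441 and 356 CPM in bone and 1246, 1256, 1104 and 1256 in skin, a log2 change of -1.69 (SE 0.15, adjusted p = 7.38e-12). Ier3, an early response gene, had 115 ± 39.3 CPM in bone and 392 ± 80.2 in skin (log2 change -1.78). These genes were higher in the same skin libraries as the cytokines above, and their part in that difference was not tested.

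**Figure D4:**
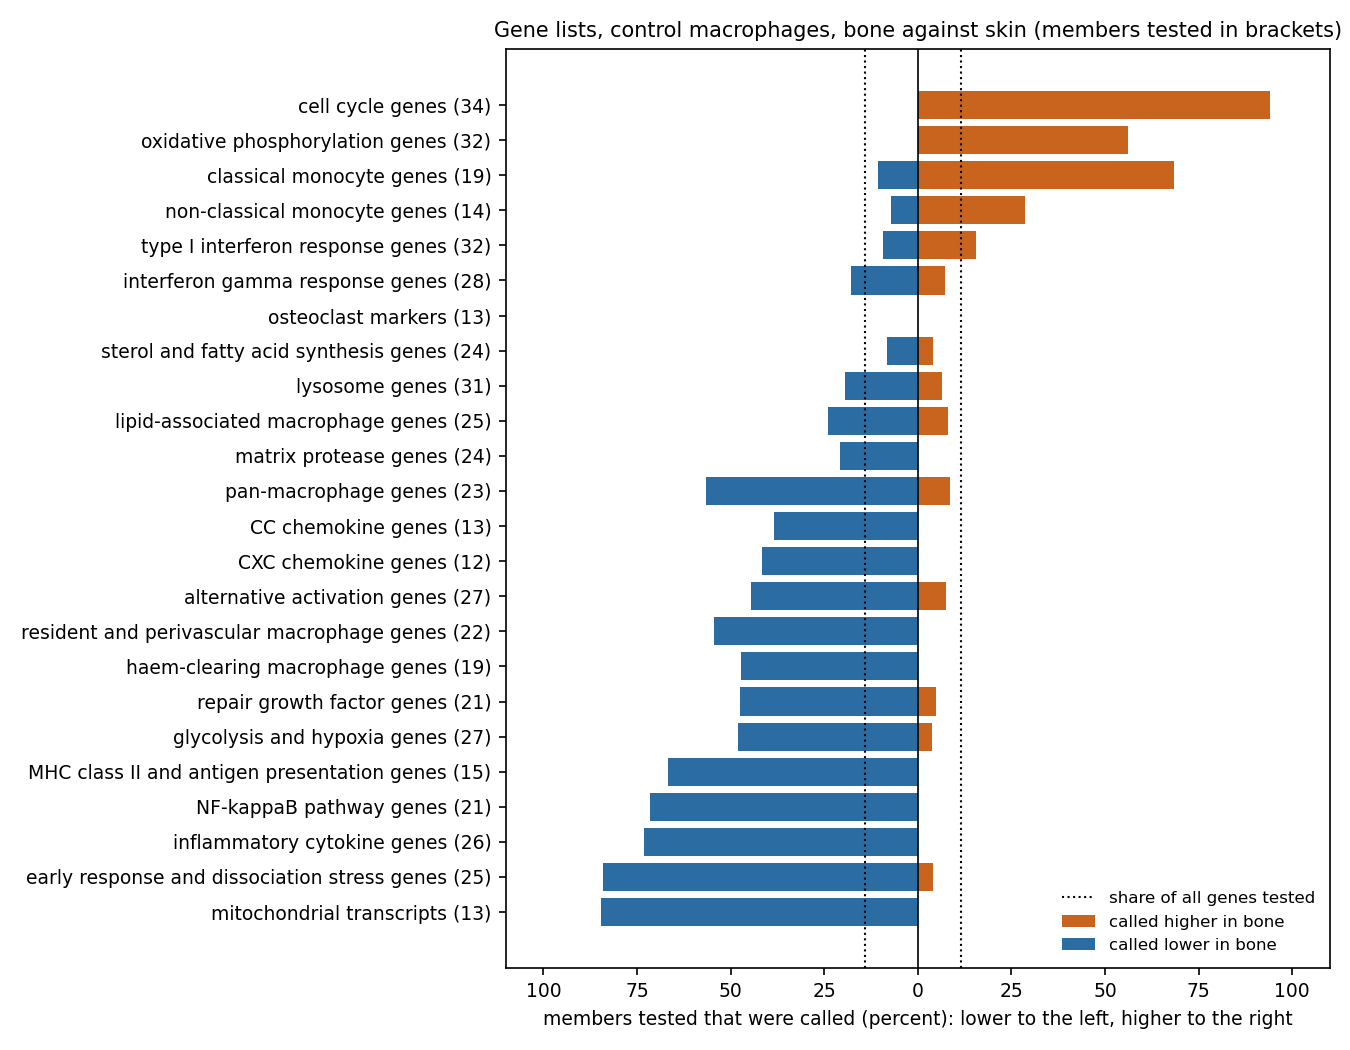
Share of the tested members of 24 gene lists that were called (horizontal, percent), to the right where higher in bone and to the left where lower in bone, with the number tested in brackets; dotted lines mark the share over all genes tested, 11.5 percent higher and 14 percent lower. Cell cycle, classical monocyte and nuclear oxidative phosphorylation genes extend to the right, cytokine, NF-κB, early response and mitochondrial transcripts extend to the left, and no osteoclast marker was called.

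Growth factor genes of repair were mostly lower in bone or not called: 10 of 21 tested were lower, 1 higher and 10 not called (median -0.64). Inhba, the subunit of activin A, had 12.7, 14.7, 12, 15.3 and 11.3 CPM in bone and 132, 170.3, 165 and 88.9 in skin, a log2 change of -3.38 (SE 0.36, adjusted p = 6.26e-09). Vegfa, the main growth factor of blood vessels, had 25.6, 20.2, 23, 27.2 and 12.2 CPM in bone and 77.9, 83.7, 107 and 81.1 in skin, and was called lower (adjusted p = 4.63e-07). Pgf, the placental growth factor of the same family, which is not on the list, had 2.54, 2.45, 1.29, 6.98 and 2.61 CPM in bone and 36.5, 69.8, 30.4 and 21.3 in skin. Skin exceeded bone in every pair of libraries for these 3 genes. Tgfb2 was the only member called higher, from low levels of 5.07, 6.94, 3.56, 1.66 and 1.3 CPM in bone and 2.42, 0.902, 0.922 and 0.861 in skin, and leaving out any of 6 of the 9 libraries lost that call. Igf1, the insulin-like growth factor of repair macrophages, had 106 ± 33.8 CPM in bone and 177 ± 79.7 in skin and was not called (adjusted p = 0.152). However, edgeR called Igf1 lower in bone with no filter on low counts (adjusted p = 2.91e-05) and with the replicate block (0.00517).

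Antigen presentation genes were lower in bone: 10 of 15 tested, with 0 higher and 5 not called (median -1.03), and 10 with any 1 library left out. H2-Ab1, the beta chain of the class II molecule I-A, had 2111, 1219, 1959, 2197 and 2346 CPM in bone and 4686, 4777, 3951 and 4432 in skin (ENSMUSG00000073421, chr17:34257689-34269419, plus strand, in GRCm38), a log2 change of -1.18 (SE 0.20, adjusted p = 1.21e-05). H2-Eb1, the beta chain of I-E, had 1090, 659.7, 921, 1123 and 1228 CPM in bone and 2624, 2818, 2366 and 2959 in skin, a log2 change of -1.42 (SE 0.19, adjusted p = 4.02e-07). Cd86, which gives T cells their second signal, had 35.1, 18.4, 26.9, 35.2 and 26.1 CPM in bone and 62.3, 59.3, 50.1 and 58.5 in skin. Bone replicate 2 was the lowest in each of them and the groups stayed apart. In a test against a 2-fold change only 1 of the 10 was still called. Langerhans and dendritic cells also express these genes, and dendritic cell markers, a list that also holds Cd24a, summed to 173 to 208 CPM in bone and 266 to 599 in skin. Their part in the difference was not tested.

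Scavenger and clearance genes of settled macrophages were lower as well. Of 22 genes of resident and perivascular macrophages, 12 were lower, 0 higher and 10 not called (median -1.10). Mrc1, the mannose receptor, had 74.3, 43.7, 30.4, 74.1 and 51.3 CPM in bone and 177, 115, 198 and 277 in skin, a log2 change of -1.80 (SE 0.31, adjusted p = 3.78e-05). Cd163, the receptor for haemoglobin bound to haptoglobin, had 7.15, 3.06, 2.59, 11 and 5.65 CPM in bone and 52.4, 17.7, 37.2 and 66.9 in skin, a log2 change of -2.91 (SE 0.55, adjusted p = 0.000142). Ccl8, a chemokine of this cell state, had 169 ± 49 CPM in bone and 609 ± 329 in skin. Within skin these 3 genes varied together, lowest in replicate 2 and highest in replicate 4. Lyve1, the hyaluronan receptor, had 2.08, 1.43, 1.29, 3.99 and 1.3 CPM in bone and 7.52, 1.98, 12.3 and 14.6 in skin, overlapped through skin replicate 2, and was called by edgeR at a log2 change of -2.14 (adjusted p = 0.00513) but not by limma-voom (adjusted p = 0.085). Folr2, a folate receptor of the same cells, was not called at 111 ± 25.9 CPM in bone and 95.5 ± 38.7 in skin.

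Apoe, apolipoprotein E, the carrier of cholesterol leaving the cell, had 6399, 4437, 7351, 7158 and 7335 CPM in bone and 17972, 11124, 17385 and 25432 in skin (ENSMUSG00000002985, chr7:19696109-19699188, minus strand, in GRCm38), a log2 change of -1.46 (SE 0.24, adjusted p = 1.7e-05). C1qa, a chain of complement C1q, had 291, 282, 238, 297 and 254 CPM in bone and 459, 358, 566 and 824 in skin, and C3, the central complement component, was the only one of 20 complement genes called higher, with 108 ± 21.1 CPM in bone and 48.8 ± 18.7 in skin (log2 change 1.13). Iron genes followed the scavenger receptors, with 9 of 19 haem-clearing genes lower and 0 higher. Hmox1, haem oxygenase, had 55.8, 61.2, 39.8, 68.5 and 58.7 CPM in bone and 206, 132, 210.5 and 205 in skin, a log2 change of -1.73 (SE 0.28, adjusted p = 9.1e-06). Fth1, the heavy chain of the iron store ferritin, had 5907, 4364, 5400, 8262 and 6537 CPM in bone and 19002, 15569, 13040 and 17444 in skin. Spic, the transcription factor of iron-recycling macrophages, had 4.38, 6.12, 6.15, 4.98 and 6.08 CPM in bone and 33.3, 20.7, 28.3 and 20.02 in skin. In all 3 the tissues were apart in every library.

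Of 32 transcription factor genes of macrophages tested, 5 were higher in bone, 13 lower and 14 not called. Maf, which drives the scavenging programme, had 70.1, 50.2, 54.4, 83.4 and 54.3 CPM in bone and 162, 103, 249 and 227 in skin, a log2 change of -1.56 (SE 0.25, adjusted p = 9.97e-06). Irf8, which commits progenitors to the monocyte lineage, was higher, with 172 ± 12.2 CPM in bone and 117 ± 34.2 in skin (log2 change 0.55). In the alternative activation list 12 of 27 genes were lower in bone, 2 higher and 13 not called (median -0.86). The higher count ranged from 0 to 3 over the alternative fits other than the 2-fold test. Chil3, the chitinase-like Ym1 of monocytes and alternatively activated macrophages, had 309.7, 368, 558, 811 and 508 CPM in bone and 213, 239, 206 and 214 in skin and was called higher at a log2 change of 1.23 (adjusted p = 0.0038), but not with Rn18s-rs5 as a covariate (adjusted p = 0.0582). Retnla, a resistin-like protein induced by interleukin-4, had 45.2, 20.4, 38.9, 135 and 265 CPM in bone and 203, 453, 346 and 529 in skin, overlapped, and was called lower at a log2 change of -1.96 (adjusted p = 0.0135), but not when these groups were fitted alone (0.112).

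In several gene lists most members were not called, as was also so over all genes tested, of which 25.6 percent were called. Of 13 osteoclast markers tested, 0 were called in either direction by edgeR at an adjusted p below 0.05, with a median log2 change of 0.09. Acp5, the tartrate-resistant phosphatase, had 729, 1305, 497, 695 and 992 CPM in bone and 1026, 1306, 372 and 422 in skin, and Ctsk, the collagen-degrading cathepsin K, had 306, 571, 207, 250.2 and 451 CPM in bone and 432, 433, 122 and 151 in skin. Within each tissue the libraries spread widely: bone replicate 2 and skin replicates 1 and 2 were the high libraries of both genes. Of 25 lipid-associated macrophage genes, 2 were higher, 6 lower and 17 not called (median -0.05). Their summed level ran lower in bone, from 19429 to 28344 CPM against 27862 to 48572 CPM in skin, with overlap. The sums averaged 25762 CPM in bone and 37907 in skin. Apoe, among the members called lower, averaged 6536 and 17978 CPM and held most of that difference. Spp1, osteopontin, had 4174, 2972, 3744, 4253 and 3497 CPM in bone and 4015, 3010, 4604 and 3483 in skin, a log2 change of -0.02 (SE 0.31, adjusted p = 0.973). Trem2, a lipid receptor, had 358 ± 72.7 CPM in bone and 478 ± 154 in skin (adjusted p = 0.132), and Gpnmb, a lysosomal glycoprotein, had 128 ± 28.7 and 133 ± 87.3 CPM (adjusted p = 0.952). However, edgeR called Trem2 lower in bone with no filter on low counts (adjusted p = 0.0457) and without skin replicate 2 (0.0485). Missing the threshold does not show that these levels are equal. Of 31 lysosome genes 23 were not called, of 24 sterol and fatty acid synthesis genes 21, and of 32 type I interferon response genes 24.

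Macrophages of the muscle defect, from 3 control libraries of the same day, were set beside both tissues. They share the bone and skin libraries with the comparison above, so the values are given side by side. For Ly6c2 the order was 1035 ± 296 CPM in bone, 108 ± 25.6 in muscle and 105 ± 13.6 in skin, and muscle and skin were not told apart (adjusted p = 0.96). Elane averaged 265 CPM in bone, 0.671 in muscle and 0.161 in skin. For Il1b the levels were 199.8 ± 59.3 CPM in bone, 315 ± 11.7 in muscle and 1347 ± 141 in skin, and bone and muscle were not told apart (adjusted p = 0.0528). Ptgs2 and Inhba gave 24.7 and 13.2 CPM in bone, 17.4 and 3.24 in muscle, and 213 and 139 in skin.

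H2-Ab1 averaged 1966 ± 441 CPM in bone, 7243 ± 1533 in muscle and 4462 ± 370.2 in skin, with muscle above skin (adjusted p = 0.0314). Apoe averaged 6536 ± 1236 CPM in bone, 17039 ± 4991 in muscle and 17978 ± 5856 in skin, and Mrc1 54.8, 212 and 192 CPM in that order. Muscle and skin were not told apart in either gene (adjusted p = 0.901 for Apoe and 0.841 for Mrc1). Hspa1a lay in between, at 25.8 ± 7.04 CPM in bone, 117 ± 10.5 in muscle and 254 ± 24.2 in skin, and differed from both (adjusted p = 1.03e-10 against bone and 0.000194 against skin). Retnla averaged 101 ± 102 CPM in bone, 3250 ± 889 in muscle and 383 ± 142 in skin, with muscle above both.

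The same tissues were compared in Treg-depleted mice, whose libraries are separate from the control libraries. There 5312 genes were called (37 percent), 2418 higher in bone (16.9 percent) and 2894 lower (20.2 percent). Of the 1656 genes higher in control bone, 1047 (63.2 percent, and 43.3 percent of the depleted calls) were called higher in depleted bone and 41 lower. Of the 2014 lower genes, 1217 (60.4 percent, and 42.1 percent of the depleted calls) were called lower and 32 higher. The sign was kept by 88.3 percent of the higher and 89.3 percent of the lower genes. The change itself differed between depleted and control mice for 1344 genes (9.37 percent), 544 with a more positive (3.79 percent) and 800 with a more negative change (5.58 percent) in depleted mice. That count was 740 with the replicate number as a block, against 767 in the like-sized fit without it.

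Of the 26 cytokine and mediator genes, 1 was higher and 21 lower in depleted bone. Their change differed between the conditions for 5, with 4 more positive and 1 more negative in depleted mice, and was not called different for 21. The more positive ones were Tnfsf14, Ebi3, Il36g and Acod1, and the more negative one was Il1rn, the interleukin-1 receptor antagonist, all listed here after their values were seen. Il1b had 157, 113, 117, 111 and 66.2 CPM in depleted bone and 753, 880.5, 1000 and 563 in depleted skin, a log2 change of -2.82 (SE 0.22, adjusted p = 4.06e-13), and the depleted minus control difference of the changes was -0.07 (SE 0.31, adjusted p = 0.936). For Osm, Tnf, Ccl3 and Nfkbia the log2 change in depleted mice was -2.18, -2.14, -2.44 and -1.80, and no difference from the control change was called. Missing that threshold does not show that the changes were equal. Cxcl2, a CXC chemokine, was further apart than in control mice, with a log2 change of -4.03 and a difference of the changes of -1.53 (SE 0.43, adjusted p = 0.0183). Ly6c2 had 2495 ± 304 CPM in depleted bone and 524 ± 201 in depleted skin, a log2 change of 2.25 (SE 0.28, adjusted p = 4.73e-08), and the difference from control mice was -1.05 (SE 0.38, adjusted p = 0.0778). All 34 cell cycle genes were higher in depleted bone (median 2.72). For 17 of the 34 the change was more positive than in control mice, for 0 more negative and for 17 not called different, and Nusap1 differed in its change by 1.46 (SE 0.26, adjusted p = 0.000192). For Mki67 the difference was not called (adjusted p = 0.0852). Progenitor markers summed to 1157 to 2393 CPM in depleted bone and 44.3 to 53.44 CPM in depleted skin, and their part in these differences was not tested.

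Many genes of mature macrophages had a more negative bone minus skin change in depleted than in control mice. This was called for 14 of 22 resident and perivascular genes, 22 of 25 lipid-associated genes and 12 of 15 MHC class II and antigen presentation genes, and a more positive change for 0 in each list. Of 23 pan-macrophage genes, 11 were also more negative, 0 more positive and 12 not called different. Their sum was 15321 to 22043 CPM in depleted bone and 25482 to 29543 in depleted skin, against 22057 to 37254 in control bone. Neutrophil markers summed to 9439 to 29227 CPM in depleted bone and 6006 to 13974 in control bone. The part of these shifts in the lists above was not tested. Folr2 had 11.5, 10.2, 29.2, 7.02 and 8.98 CPM in depleted bone and 152, 105, 82.7 and 136 in depleted skin, a log2 change of -3.16 (SE 0.30, adjusted p = 7.36e-11), where control mice gave no call, and the difference of the changes was -3.38 (SE 0.41, adjusted p = 1.35e-06). Ccl24 had 18.6, 21.4, 97.6, 15.9 and 6.17 CPM in depleted bone and 659, 545, 225 and 708 in depleted skin, a log2 change of -4.05, and the difference of the changes was -4.12 (SE 0.69, adjusted p = 0.000137). Depleted bone replicate 3 was the highest bone library of both genes and still below every depleted skin library. C1qa, H2-Ab1, Apoe and Mrc1 were lower in bone in both conditions and further apart in depleted mice, with differences of -2.29, -1.78, -1.66 and -1.82 on the log2 scale (adjusted p = 4.4e-05, 3.14e-05, 0.00132 and 0.00639). All 25 lipid-associated genes were lower in depleted bone (median -1.49), among them Spp1, Trem2 and Gpnmb. Dok2, an adaptor that dampens receptor signalling, had 39.1 ± 16.2 CPM in bone and 173 ± 33.4 in skin of depleted mice and 92.9 ± 20.03 in bone and 63.6 ± 16 in skin of control mice, a difference of the changes of -2.70 (SE 0.29, adjusted p = 1e-07). Its control call was lost on leaving out any of 4 libraries.

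Some genes of the skin side were not lower in bone in depleted mice. Retnlg had 106, 153, 76.1, 138 and 125 CPM in depleted bone and 92.7, 18.3, 39.6 and 16.3 in depleted skin, higher in bone at a log2 change of 1.52 (SE 0.57, adjusted p = 0.0332), and the difference of the changes was 5.09 (SE 0.80, adjusted p = 6.36e-05). G0s2, an inhibitor of fat breakdown, had 20.3 ± 7.54 CPM in bone and 11.7 ± 6.52 in skin of depleted mice, and 8.1 ± 1.31 in bone and 64.4 ± 19.8 in skin of control mice (difference of the changes 3.79, SE 0.47, adjusted p = 1.43e-06). Ccr3, Siglecf and Cd207 were no longer called in depleted mice, at 1.71, 3.44 and 0.362 CPM in depleted skin, and each differed in its change (adjusted p = 0.0297, 0.00202 and 0.024). The markers of eosinophils and Langerhans cells moved with these libraries, and their part in the differences of other genes was not tested.

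**Figure D5:**
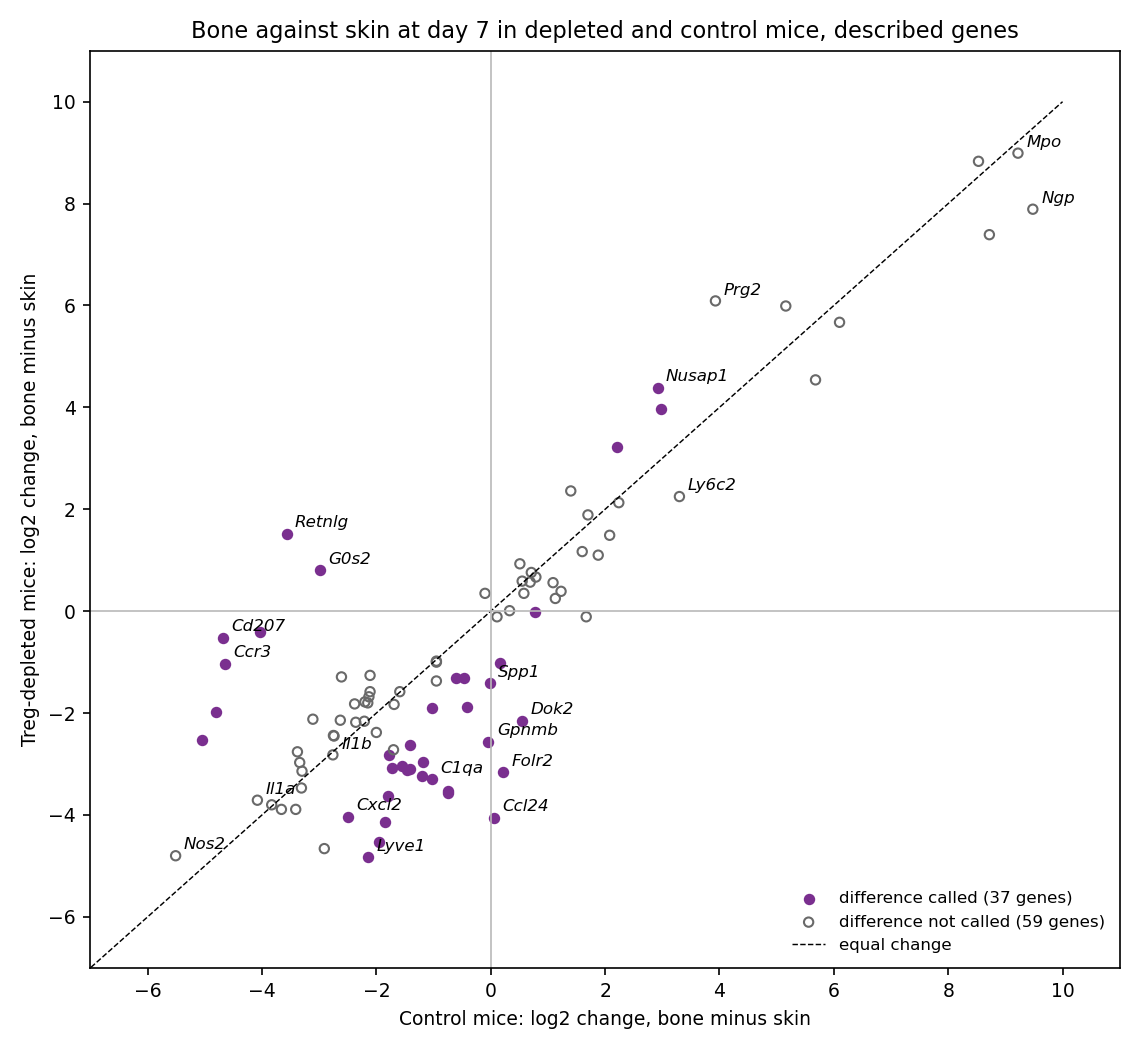
Log2 change of bone minus skin in Treg-depleted mice (vertical) against control mice (horizontal) for the genes described in the text that have more than 3 counts in each group; filled points are genes whose change differed between the conditions, open points are the others, and the dashed line marks equal change. Il1b and Il1a lie near the line, Folr2, Ccl24 and C1qa lie below it, and Retnlg and G0s2 lie above 0 in depleted mice only.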

How the data were processed

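Libraries were 3′ libraries primed on the poly(A) tail with a template switch and unique molecular identifiers (UMIs), made from RNA of sorted cells, per the labels' protocols. The authors made estimated counts per gene with STAR, featureCounts and limma, per the submitters' processing notes, which list GRCm38 and GRCm39. The sources used here do not give the annotation, nor whether UMIs were collapsed or strand was used. The deposited estimated counts are unscaled. All were rounded for the tests, since 19.4 percent of the values above 0 were not whole (tolerance 0.01). Gene names were found for 52029 of 57010 identifiers. Coordinates are GENCODE M21 (GRCm38), and promoters are RefSeq GRCm38.p6 (78 of 104 described genes had a window).

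All 44 libraries of the bone, muscle and skin table (12 groups of tissue, day and condition) were fitted together in edgeR 4.0.16 (TMM, filterByExpr, robust quasi-likelihood fit) under R 4.3.3, with contrasts between day 7 groups and Benjamini-Hochberg adjustment over 14340 genes at 0.05. Alternatives were RLE scaling, no filter, DESeq2 1.42.0, limma-voom (limma 3.58.1), fewer groups, a replicate block, Rn18s-rs5 as a covariate, a 2-fold test, and each library left out. On simulated data for this comparison (13738 genes, 200 changed), 76 percent of 2-fold and 98 percent of 4-fold changes were found, with 4 false calls. The changed genes left out those of low level, were balanced in direction and were far fewer than the genes called here. These figures therefore do not cover the genes of a few CPM. In all 12 groups, counts of libraries of a group differed by 5.28 to 24.8 times sampling noise (chi-square per degree of freedom), so no pair was counted as a repeat deposit. Intervals and floors cover counting error only.

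The libraries, gene lists and named genes were chosen with earlier results of these data known. Genes were named from those with at least 10 CPM, no overlap and the largest changes, from the most significant members of each list, from a fixed panel, from abundant genes that were not called, and from the most significant differences between conditions; some genes are not reported here. Groups follow the labels, and replicate numbers were not treated as pairs, since same-numbered bone and skin control libraries did not all deviate together (correlations -0.07, 0.12, 0.11 and 0.14).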

Additional observations from a re-analysis of the deposited data

Results flagged for a closer look

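Single control libraries stood far from the rest of their group by Dixon's criterion at 95 percent, which chance meets in about 1 of 20 groups. Many genes were checked, so some of the values below can be chance. Bone replicate 2 did so with 517 CPM of Mmp9. Bone replicate 3 did so with 77602 CPM of Rn18s-rs5. Bone replicate 4 did so with 41.5 CPM of Tnf, 6.98 CPM of Pgf, 364 CPM of Arg1 and 3.99 CPM of Lyve1. Bone replicate 5 did so with 27.4 CPM of Osm. Skin replicate 1 did so with 2.42 CPM of Tgfb2. Skin replicate 2 did so with 159 CPM of Adgre1, 45.3 CPM of Siglecf, 7969 CPM of Cxcl2, 132 CPM of Hmox1 and 17.1 CPM of Epcam. Skin replicate 3 did so with 1104 CPM of Zfp36. Skin replicate 4 did so with 24.3 CPM of Igkc, 348 CPM of Tnfaip3, 532 CPM of Nfkbiz and 296 CPM of Igf1. Skin replicate 2 held several of these values, low in Adgre1 and Hmox1 and high in Siglecf, Cxcl2 and Epcam.

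The bone minus skin change differed between depleted and control mice, by the edgeR quasi-likelihood test of that difference, for these described genes (depleted minus control, log2). It was more positive in depleted mice for Retnlg (5.09), Cd207 (4.17), G0s2 (3.79), Siglecf (3.64), Ccr3 (3.60), Serpinb2 (2.84), Alox15 (2.53), Nusap1 (1.46), Top2a (1.02) and Rrm2 (0.99). It was more negative by over 2 for Ccl24 (-4.12), Folr2 (-3.38), Igf1 (-2.82), Pf4 (-2.77), Dok2 (-2.70), Lyve1 (-2.67), Retnla (-2.58), Gpnmb (-2.51), C1qa (-2.29), Ccl8 (-2.29) and Cxcl16 (-2.03). Smaller negative differences were found for Mrc1 (-1.82), H2-Ab1 (-1.78), H2-Eb1 (-1.66), Apoe (-1.66), Cxcl2 (-1.53), Trem2 (-1.46) and Maf (-1.46). The smallest were those of Spp1 (-1.39), Hmox1 (-1.35), Fth1 (-1.20), Cd68 (-1.19), Ier3 (-1.04), Cd86 (-0.87), Csf1r (-0.85), Lyz2 (-0.79) and Adgre1 (-0.71). Cxcl16 encodes a chemokine and scavenger receptor, and Pf4 the platelet factor 4 that macrophages also make.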

How the results depend on the processing

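Of the alternatives to the control comparison, which called 3670 genes, the test against a 2-fold change moved the count by over 1.5 times, to 531, and leaving out 1 library gave 3065 to 3827. The depleted comparison called 5312 genes, 1394 in the 2-fold test, and 4708 to 5247 with 1 library left out. The difference between conditions was called for 1344 genes, 97 in the 2-fold test, and 1034 to 1517 with 1 library left out. With the replicate block, which fits replicates 1 to 4 of the compared groups, the counts were 2468, 3579 and 740 in that order. Without the block the same libraries, an alternative added after seeing the data, gave 2477, 3892 and 767, so fewer libraries and groups go with most of that drop. Replicate numbers were not shown to pair the libraries. Among list counts, nuclear respiratory genes dropped to 10 with no filter and 10 with the block, mitochondrial transcripts to 7 and fibroblast markers to 1 with 1 library left out, and no value changed sign past the threshold. At 2318223 to 5392902 counts a library, genes of a few CPM rest on few counts.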
